A study of Saccharomyces cerevisiae with 12 samples.

Results

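The genes described here belong to the yeast methyl cycle and to transsulfuration, which joins it to cysteine. MET6 (YER091C), MET13 (YGL125W), SAM1 (YLR180W), SAM2 (YDR502C), SAH1 (YER043C) and ADO1 (YJR105W) encode enzymes of the methyl cycle. STR3 (YGL184C), CYS3 (YAL012W) and CYS4 (YGR155W) encode transsulfuration enzymes, and MET28 (YIR017C) encodes a transcription cofactor of the pathway. These 10 genes were chosen by name with earlier results of these data known. All 10 were found in a table of 6607 distinct identifiers. The table comes from a capture of RNA that carries NAD+ as its cap, in 12 libraries of the haploid budding yeast strain BY4742. BY4742 is an alpha strain with deletions in HIS3, LEU2, LYS2 and URA3, which all 4 groups share, and with an intact MET17 gene, so it can make homocysteine from sulfide.

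Cells were harvested in mid-log growth from YEPD, a rich medium of yeast extract, peptone and 2% dextrose, or from minimal medium, which held yeast nitrogen base, a complete amino acid mixture and the same share of dextrose. DNase-treated total RNA was exposed to the alkyne 4-pentynol with or without ADP-ribosylcyclase (ADPRC), an enzyme that replaces the nicotinamide of NAD-capped RNA by the alkyne; libraries without the enzyme are called mock. Biotin was then clicked onto alkyne-bearing RNA, which was held on streptavidin beads during cDNA synthesis. A mock library therefore measures RNA that stays on beads without the enzyme, and a level here is a level in the bead-bound fraction, not in total RNA. The groups were minimal mock, minimal ADPRC, YEPD mock and YEPD ADPRC, with 3 libraries each. The labels do not state that the 3 libraries of a group are separate cultures; the p-values then cover library spread that may be technical.

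Methionine sits at the centre of this pathway. It is made by methylation of homocysteine with a folate-borne methyl group and is then activated with ATP to S-adenosylmethionine, the methyl donor of nearly all cellular methylation. Each methyl transfer leaves S-adenosylhomocysteine, whose hydrolysis returns homocysteine to the cycle. Transsulfuration moves the sulfur between homocysteine and cysteine through cystathionine, in both directions in yeast. Many genes of the pathway are known targets of the activator Met4, which is brought to DNA by Cbf1, Met31 and Met32 and is helped there by Met28.

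The strain label was checked against its markers. LEU2, LYS2 and URA3 were at 0 in all 12 libraries, and MET17 stood between 537 and 1468. HIS3 was read at 89.5 to 238 in all libraries, but the usual HIS3 allele of this strain is a partial deletion, so its remaining reads check nothing. The alpha-factor gene MF(ALPHA)1 was at 2271 to 7945, MF(ALPHA)2 at 145 to 1002 and the alpha-cell gene STE3 at 464 to 767. The a-factor genes MFA1 and MFA2 stayed at or under 5.09. Other a-cell genes were read somewhat higher, STE2 at 5.42 to 15.5 and BAR1 at 3.19 to 32.8. Reads per library ran from 3246900 to 3937618 in minimal mock, from 6727168 to 7959385 in minimal ADPRC, from 11700161 to 13820148 in YEPD mock and from 12051316 to 13958188 in YEPD ADPRC. Open reading frames inside the ribosomal DNA, of which 8 are listed, took 52.9% ± 2.02 (SD, n = 3) of the signal of minimal mock libraries and 31.7% ± 1.34 of minimal ADPRC libraries. In YEPD these shares were 79.6% ± 1.12 (mock) and 74.2% ± 8.17 (ADPRC). YEPD ADPRC replicate 2 stood apart from the other two of its group, with 64.8% against 78.3% and 79.5%. The frames on the Watson strand of this DNA, opposite to the ribosomal RNA, took 0.0365% ± 0.0096 in minimal mock and 61.1% ± 1.15 in YEPD mock. The media thus differ in how reads fell on strands, and an effect of counting or library preparation on a difference between media cannot be told apart from the medium.

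Values below are the authors' normalized counts, that is reads per gene divided by 1 factor per library, with mean ± SD over the 3 libraries of a group. Log2 changes are differences of log2(value + 1) with the standard error (SE) of limma, a linear model fitted to all 5490 genes with a mean of at least 10. P-values are two-sided and adjusted by Benjamini-Hochberg over all genes of a comparison, with a threshold of 0.05. A level in bulk culture does not tell fewer cells with the RNA from less RNA per cell.

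All 9 genes that were above 0 in both media had their 3 minimal mock values above their 3 YEPD mock values, and 8 of them rose past the test in minimal medium, against 13.6% of all genes tested without overlap and 7.29% past the test in that direction. The genes were chosen with earlier results of these data known, so these shares are a description and not a test against other genes. Of the related genes outside the set, 0 of 4 other methyl cycle genes were higher. Of 5 other transsulfuration and lyase genes 0 were higher and 2 lower. SAM2, MET6, STR3 and MET13 stood 3.68- to 5.66-fold higher in minimal medium on the log2(value + 1) scale, SAH1 2.34-fold, SAM1 and ADO1 1.67- and 1.66-fold, CYS4 1.26-fold, and CYS3 did not pass. The 10 genes together took 1.10% ± 0.012 of the signal outside the ribosomal DNA frames in minimal mock and 0.451% ± 0.005 in YEPD mock. With ADPRC in minimal medium SAM2 was higher and CYS3 lower than without it, and the other 8 genes did not pass, where 28.8% of all genes passed in either direction. In YEPD 0 of the 9 genes passed with limma, edgeR or DESeq2, against 5.46% of all genes with limma, and 1 had an unadjusted p under 0.05 with each tool.

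**Figure D1:**
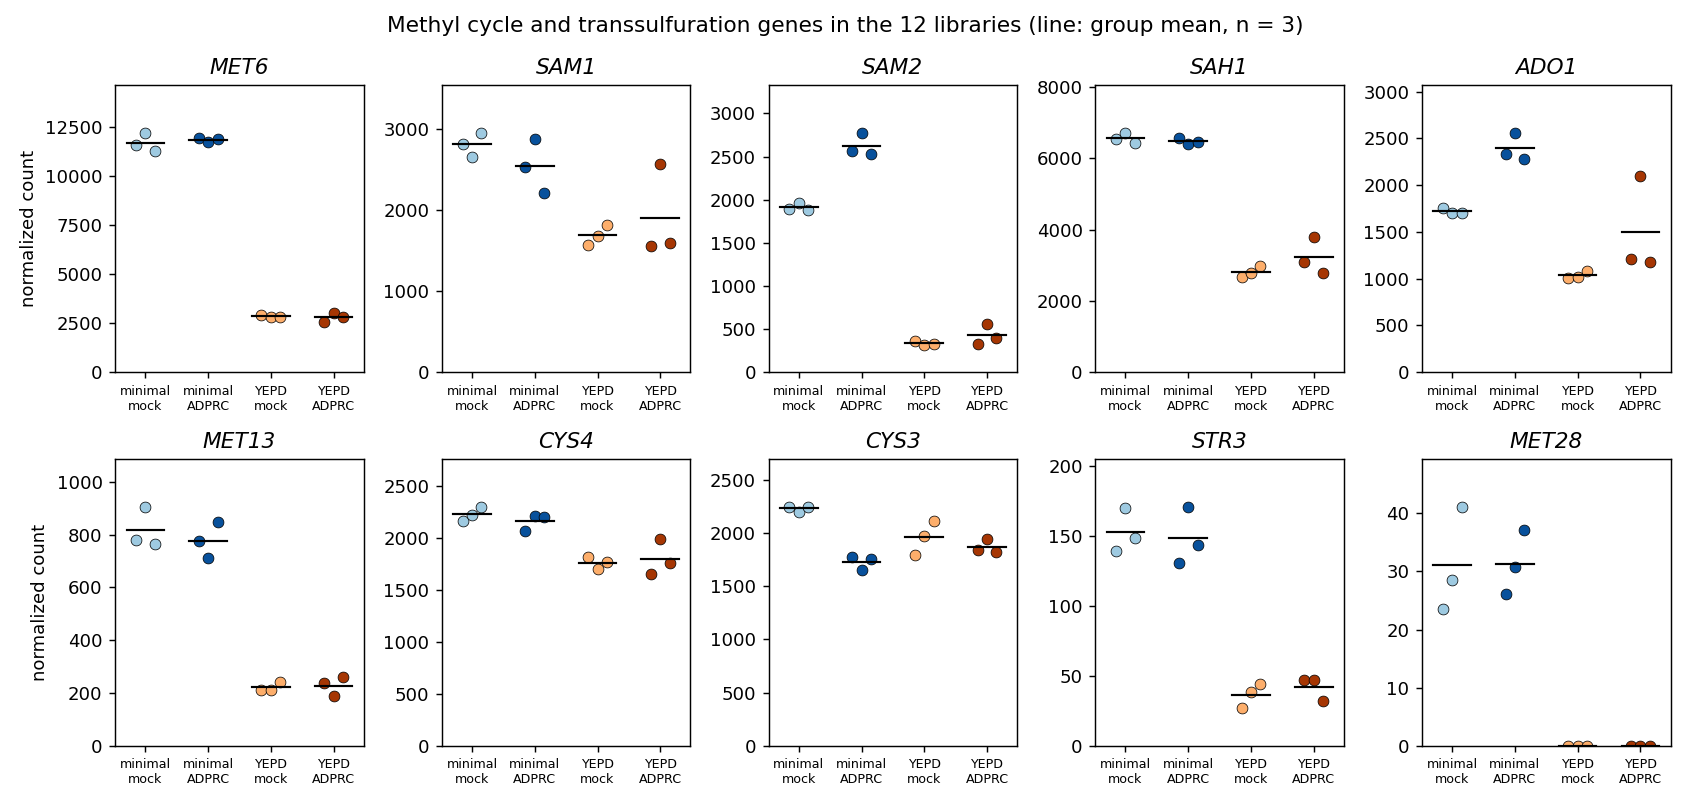
Normalized count of each of the 10 genes in the 12 libraries, with 1 panel per gene, 1 point per library and a line at the group mean (n = 3). Each vertical axis starts at 0. MET6 falls from 11297 or more in minimal medium to 3033 or less in YEPD, CYS3 stays between 1658 and 2251, and MET28 is at 0 in the 6 YEPD libraries.

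Levels were compared between genes per kb of coding length, with lengths from RefSeq R64. In minimal mock, MET6 (methionine synthase) led with 5074 ± 202 per kb and SAH1 (S-adenosylhomocysteine hydrolase) followed with 4859 ± 108, and their libraries overlapped. SAM1 followed at 2451 per kb, CYS3 at 1884, ADO1 at 1682, SAM2 at 1653 and CYS4 at 1462. Of these neighbours only ADO1 and SAM2 overlapped. MET13, STR3 and MET28 were the lowest, at 454, 109 and 55.1 per kb, without overlap between neighbours.

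The order was different in YEPD. In YEPD mock SAH1 led with 2079 per kb, CYS3 followed with 1658 and overlapped SAM1 at 1472, and MET6 came after them at 1236, above CYS4 at 1156 and ADO1 at 1014. SAM2 stood at 292 per kb, MET13 at 123 and STR3 at 26.0. The enzyme-treated libraries gave SAM1, SAM2 and ADO1 nearly equal levels in minimal medium, where ADO1 had 2338, SAM2 2269 and SAM1 2215 per kb with overlapping libraries. In YEPD ADPRC the 6 highest genes, from SAH1 at 2388 to CYS4 at 1181 per kb, overlapped each neighbour in the order.

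**Figure D2:**
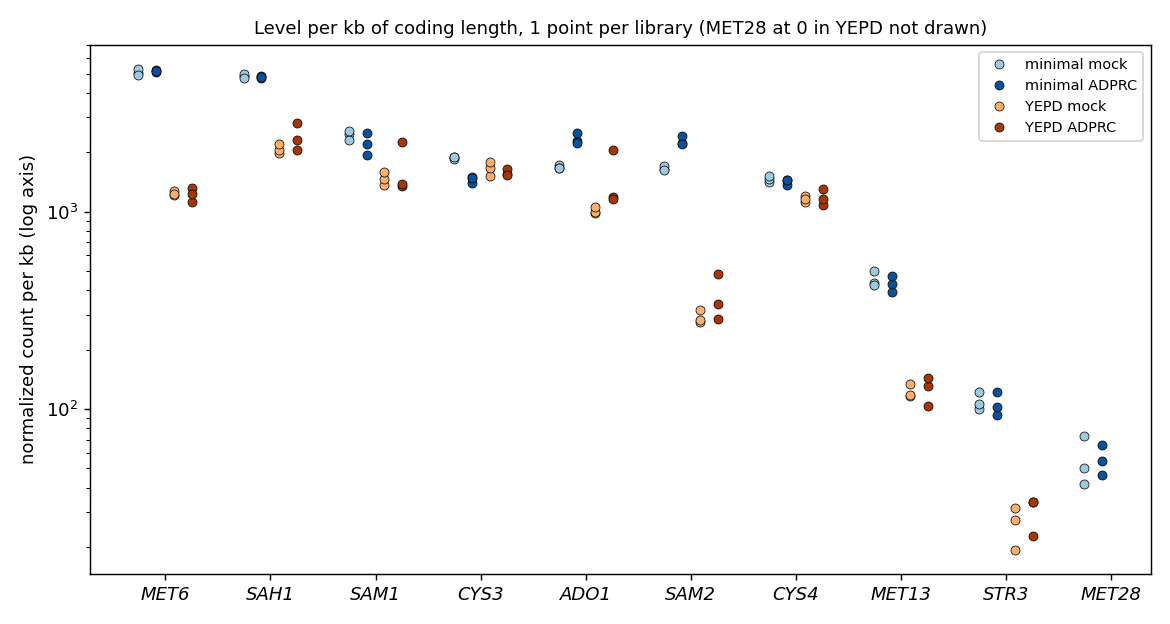
Normalized count per kb of coding length on a log axis, 1 point per library, in the order of the minimal mock means; the 6 values of MET28 in YEPD are 0 and are not drawn. The highest and lowest genes differ from 5074 to 55.1 per kb in minimal mock, and MET6 stands below SAH1, CYS3 and SAM1 in YEPD mock.

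Growth medium was compared first in the mock libraries, where 8 of the 9 genes were higher in minimal medium and 0 lower, against 7.29% higher, 22.4% lower and 29.7% in either direction of all genes tested. The 9 genes above their YEPD libraries without overlap, and 0 below, stand against 13.6% and 41.1% of all genes. The median log2 change was 1.23 over the 9 genes and -0.20 over all genes tested. Another scaling moves that baseline. The median of all genes was -0.01 with trimmed-mean (TMM) factors, -0.16 with the same total outside the ribosomal DNA frames, and 1.03 with the same total per library. No gene of the 9 changed sign in this comparison under any alternative run.

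Methylation of homocysteine is the step that makes methionine. MET6, the cobalamin-independent methionine synthase, was read at 11568, 12204 and 11297 in minimal mock and at 2931, 2785 and 2827 in YEPD mock. The lowest minimal library was thus well above the highest YEPD library. The log2 change was 2.04 ± 0.11 (SE; 4.10-fold, limma adjusted p = 4.38e-09). MET13, the methylenetetrahydrofolate reductase that makes the methyl-folate used by Met6, was read at 781, 907 and 766 in minimal mock and at 210, 213 and 243 in YEPD mock. Its log2 change was 1.88 ± 0.13 (3.68-fold, limma adjusted p = 7.31e-08), again without overlap.

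S-adenosylmethionine synthetase is encoded by SAM1 and SAM2, which are close paralogs. How reads that match both were counted is not stated, so the split between them carries that uncertainty. SAM2 was read at 1891, 1961 and 1874 in minimal mock and at 366, 318 and 327 in YEPD mock, a log2 change of 2.50 ± 0.15 (5.66-fold, limma adjusted p = 1.78e-08). It had the largest change of the 9 genes. SAM1 was read at 2826, 2664 and 2959 in minimal mock and at 1575, 1686 and 1813 in YEPD mock, a log2 change of 0.74 ± 0.17 (limma adjusted p = 0.00563). Their sum was 4725 ± 104 in minimal mock and 2028 ± 102 in YEPD mock, a ratio of 2.33 with no overlap. The sum does not depend on the split of reads between the copies if each shared read was counted once. Whether that held is not stated.

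The share of SAM2 in that sum was 40.4% ± 1.84 without and 50.9% ± 2.17 with the enzyme in minimal medium, and 16.7% ± 1.92 without and 18.3% ± 1.24 with it in YEPD. The share was higher in all 3 minimal libraries than in all 3 YEPD libraries, with and without the enzyme, by 23.8 points in mock and 32.5 points in ADPRC libraries. It was also higher in all 3 minimal ADPRC than in all 3 minimal mock libraries, by 10.4 points. An exact two-sided permutation test gave p = 0.1 for each of these 3 differences, the smallest p that 3 against 3 libraries allow, so the design cannot place them under 0.05. The exact permutation p was 0.3 for ADPRC against mock in YEPD, where the groups overlapped. Adjusted over the 4 tests the exact permutation p-values were 0.133, 0.133, 0.133 and 0.3.

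**Figure D3:**
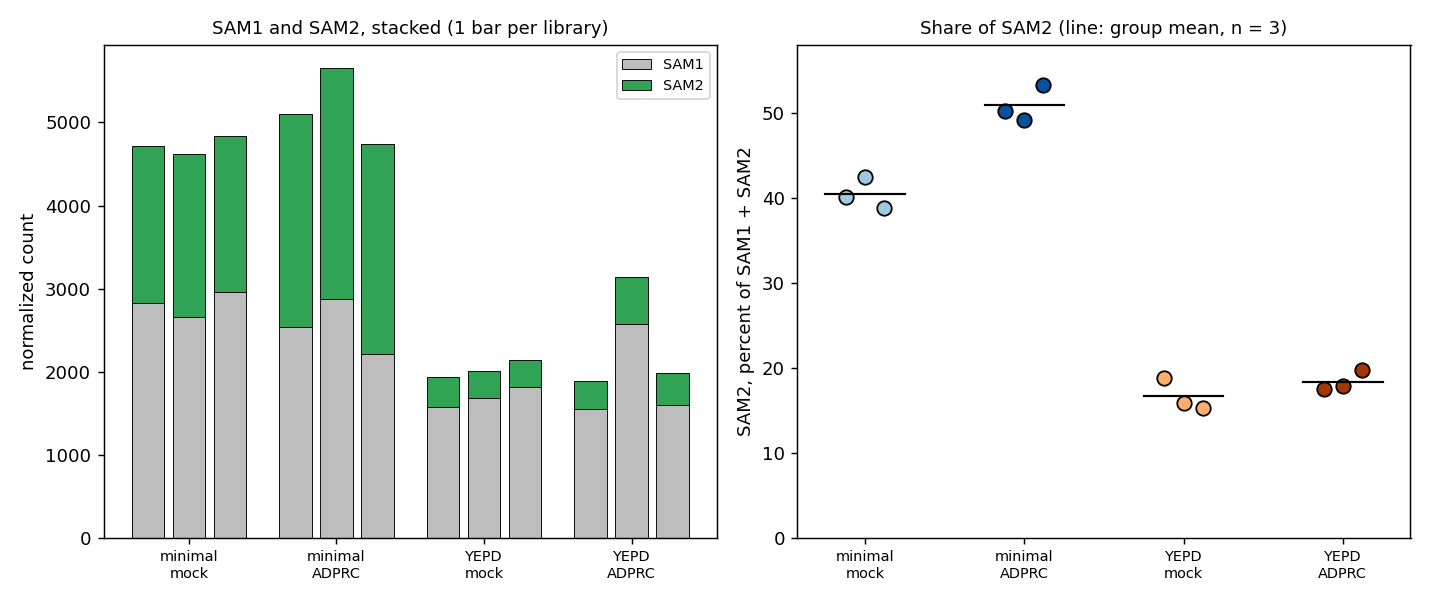
Left, normalized counts of SAM1 and SAM2 stacked, 1 bar per library; right, SAM2 as a percent of the sum, 1 point per library with a line at the group mean (n = 3). SAM2 takes 38.8% to 53.3% of the sum in minimal medium and 15.3% to 19.8% in YEPD.

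Removal of the products of methyl transfer falls to SAH1 and ADO1. SAH1 was read at 6541, 6715 and 6425 in minimal mock and at 2676, 2770 and 2974 in YEPD mock, a log2 change of 1.23 ± 0.12 (2.34-fold, limma adjusted p = 3.45e-06). ADO1, the adenosine kinase that phosphorylates the adenosine released by Sah1, was read at 1756, 1706 and 1701 in minimal mock and at 1006, 1019 and 1085 in YEPD mock. Neither gene's groups overlapped, and the log2 change of ADO1 was 0.73 ± 0.17 (limma adjusted p = 0.00614).

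The transsulfuration genes did not share a single size of change. STR3, the cystathionine beta-lyase that releases homocysteine from cystathionine, was read at 139, 170 and 149 in minimal mock and at 27.1, 38.1 and 43.9 in YEPD mock. Its log2 change was 2.06 ± 0.20 (limma adjusted p = 2.30e-06), on 29 to 38 reads per YEPD mock library. The enzymes of the opposite direction, from homocysteine to cysteine, changed less. CYS4, the cystathionine beta-synthase, was read at 2159, 2224 and 2300 in minimal mock and at 1819, 1703 and 1763 in YEPD mock. Its groups did not overlap, and its log2 change was 0.34 ± 0.10 (limma adjusted p = 0.0224). That call was lost without minimal mock replicate 2 (adjusted p = 0.0574) or 3 (0.0749) and without YEPD mock replicate 2 (0.0843) or 3 (0.0585), and adjusted p ran from 9.52e-07 to 0.0843 over the alternatives.

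CYS3, the cystathionine gamma-lyase that releases cysteine, was read at 2251, 2199 and 2248 in minimal mock and at 1798, 1977 and 2119 in YEPD mock. The groups did not overlap, but the log2 change of 0.19 (95% confidence interval -0.02 to 0.40, limma adjusted p = 0.155) did not pass. It passed at 0.38 with TMM scaling (adjusted p = 0.0135), at 0.36 with DESeq2 (0.0135), at 1.44 with the same total per library (7.19e-07), at 0.37 with the trend in gene length removed (0.00172), in a fit of the mock groups alone (0.0135), and without YEPD ADPRC replicate 2 at the same value (0.0189). Adjusted p ran from 7.19e-07 to 0.422 over the alternatives. The interval of CYS3 lies below those of MET6, MET13, SAM2, SAH1 and STR3, whose lowest bound is 0.96; differences between genes were not tested.

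MET28, a basic leucine zipper protein without activation function of its own, was read at 23.5, 28.5 and 41.2 in minimal mock, on 13 to 23 reads per library, and at 26.1, 30.7 and 37.1 in minimal ADPRC, on 48 to 60 reads. It is listed at 0 in all 6 YEPD libraries. It shared that pattern with other identifiers: 54 were above 0 in every minimal library and at 0 in every YEPD library, 12 of them with a RefSeq match, and 55 showed the reverse. Among the 54 was HYP2, the gene of an abundant translation factor, with a mean of 2833 in minimal medium, as well as LSM8 and DID2. A listed 0 in YEPD can therefore be a missing estimate, and whether MET28 RNA was absent there was not tested. MET28 has no fold between media here and is left out of the counts of the 9 genes.

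The same comparison in the enzyme-treated libraries shares no library with the mock comparison. Of the 9 genes 6 were higher in minimal medium and 0 lower, against 7.05% higher, 25.7% lower and 32.8% in either direction of all genes. The minimal values lay wholly above the YEPD values for 7 genes and wholly below for CYS3, against 8.38% and 31.8% of all genes. The log2 change was 2.08 ± 0.11 for MET6 (limma adjusted p = 3.62e-09), 2.65 ± 0.15 for SAM2 (9.41e-09) and 1.78 ± 0.13 for MET13 (1.18e-07). STR3 had 1.81 ± 0.20 (9.55e-06), SAH1 1.02 ± 0.12 (2.44e-05) and ADO1 0.73 ± 0.17 (0.0062), a call that ADO1 lost in a fit of the ADPRC groups alone (0.0674; range over the alternatives 7.1e-12 to 0.315). These 6 genes also passed in the mock libraries. The median was 1.02 over the 9 genes and -0.19 over all genes.

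SAM1 and CYS4 fell just outside the threshold in the enzyme-treated libraries, with log2 changes of 0.45 ± 0.17 (limma adjusted p = 0.0582) and 0.27 ± 0.10 (0.0558). Both passed with YEPD ADPRC replicate 2 kept under 6 alternatives: TMM scaling (0.0165 and 0.00421), the same total per library (2.94e-06 and 2.66e-07), the same total outside the ribosomal DNA frames (0.0174 and 0.0448), the trend in gene length removed (0.00429 and 0.000142), and, on reads without YEPD mock replicate 2, edgeR (0.0413 and 0.0121) and DESeq2 (0.0169 and 0.000178). SAM1 was read at 1556, 2577 and 1594 in YEPD ADPRC, where the middle value is replicate 2, and at 2540, 2879 and 2216 in minimal ADPRC. Both also passed without YEPD ADPRC replicate 2, where the log2 change was 0.68 for SAM1 (adjusted p = 1.98e-07) and 0.34 for CYS4 (1.43e-04). Neither passed in a fit of the ADPRC groups alone (limma adjusted p = 0.191 and 0.202). The same held without the unnumbered YEPD ADPRC library (0.23 and 0.208), its replicate 3 (0.2 and 0.132) or any minimal ADPRC library (0.0553 to 0.202 and 0.0944 to 0.14). The same total per library put the median of all genes at 1.28 in this comparison. Over all alternatives adjusted p ran from 1.98e-07 to 0.668 for SAM1 and from 2.66e-07 to 0.757 for CYS4. CYS3 had a log2 change of -0.11 (95% confidence interval -0.32 to 0.10, limma adjusted p = 0.402), which turned to 1.38 with the same total per library (5.89e-07) and was 0.09 with TMM scaling (0.522); its adjusted p ran from 5.89e-07 to 0.854.

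**Figure D4:**
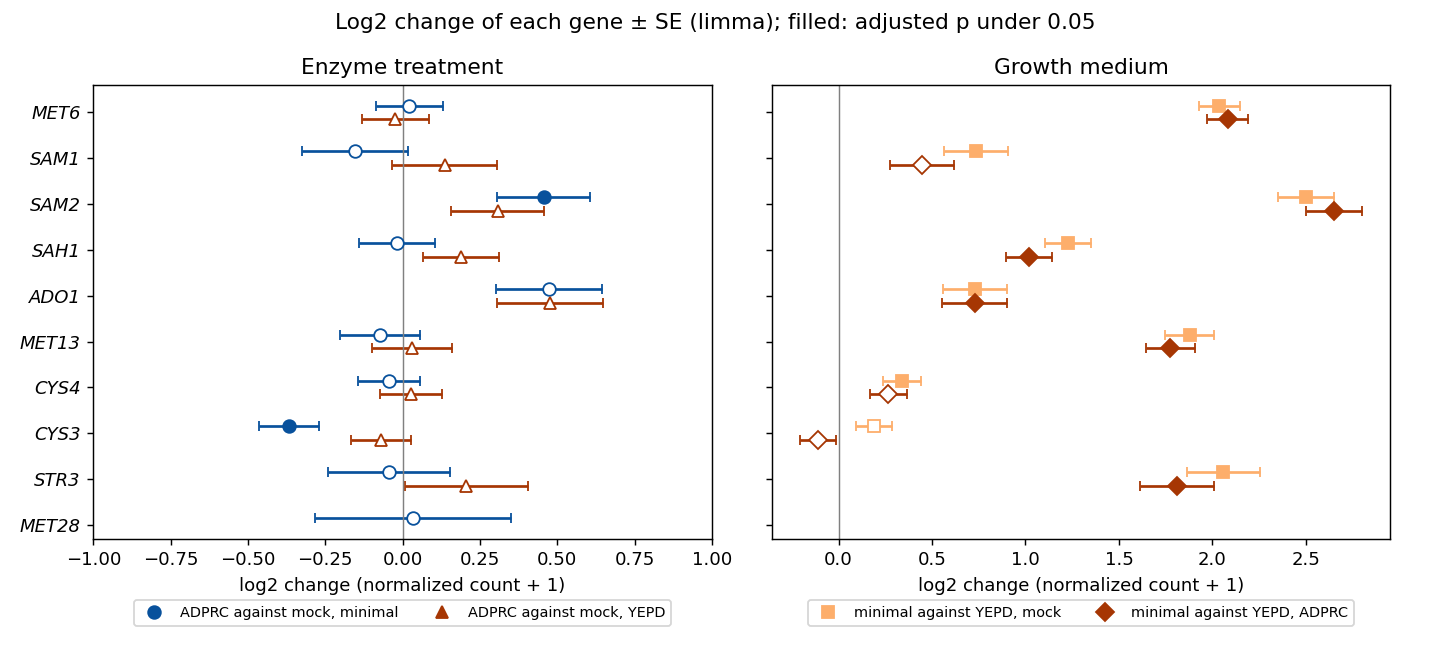
Log2 change of each gene with the SE of limma as bars, for ADPRC against mock (left) and minimal medium against YEPD (right); filled symbols have an adjusted p under 0.05, and MET28 is drawn only where both groups are above 0. The media changes reach 2.65 for SAM2, while ADPRC changes lie between -0.37 for CYS3 and 0.48 for ADO1.

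ADPRC against mock asks which RNAs are bound more with the enzyme, as a measure of the NAD cap. In minimal medium 1 of the 10 genes was higher and 1 lower, against 14.2% higher, 14.6% lower and 28.8% in either direction of all genes tested, so neither share of the 10 stands above the background. The median log2 change of the 10 genes was -0.03, and that of all genes was 0.01. Without overlap were 2 genes higher and 1 lower, against 27.5% and 27.3% of all genes.

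SAM2 was read at 2561, 2776 and 2527 in minimal ADPRC, above all 3 minimal mock libraries, which stood at 1961 or less. Its log2 change was 0.46 ± 0.15 (limma adjusted p = 0.0383). The call was lost with edgeR (adjusted p = 0.0561), with the same total outside the ribosomal DNA frames (0.0553), with the trend in gene length removed (0.34, 0.0623), and without any single library of minimal mock (0.0841 to 0.0926), minimal ADPRC (0.0719 to 0.12) or YEPD mock (0.0516 to 0.0553). The call was thus lost under 12 alternatives and kept under 10. A fit of the minimal groups alone had a limma adjusted p of 6.33e-06, and leaving out YEPD ADPRC replicate 2 gave 1.15e-05. That library enters the estimate of the spread but not the change itself. The adjusted p of SAM2 over all alternatives ran from 6.33e-06 to 0.12. SAM1 did not rise with it, at 2540, 2879 and 2216 in minimal ADPRC and a log2 change of -0.15 (95% confidence interval -0.52 to 0.21). The sum of the copies was 5166 ± 459 in minimal ADPRC and 4725 ± 104 in minimal mock, and these groups overlapped.

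CYS3 was read at 1778, 1658 and 1760 in minimal ADPRC, below all 3 minimal mock libraries, which stood at 2199 or more. The log2 change was -0.37 ± 0.10 (limma adjusted p = 0.0170). It fell short of the threshold without minimal mock replicate 1 (adjusted p = 0.053), minimal ADPRC replicate 1 (0.051) or minimal ADPRC replicate 2 (0.0663). The direction turned to 0.07 with the same total per library (adjusted p = 0.704), a scaling that moved the median of all genes to 0.44. Over the alternatives its adjusted p ran from 4.33e-05 to 0.704.

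ADO1 was read at 2337, 2560 and 2279 in minimal ADPRC, above all 3 minimal mock libraries, which stood at 1756 or less. Its log2 change of 0.47 ± 0.17 had a limma adjusted p of 0.0526. It passed with TMM scaling (adjusted p = 0.0495), with the same total per library (0.91, 0.00992), with a fit of the minimal groups alone (5.23e-06), and without the unnumbered YEPD ADPRC library (0.0445), YEPD ADPRC replicate 2 (8.84e-07) or replicate 3 (0.0324). Those 3 libraries enter the estimate of the spread but not the change itself. The range over the alternatives was 8.84e-07 to 0.155.

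The remaining 7 genes had log2 changes between -0.15 for SAM1 and 0.03 for MET28 in minimal medium. MET6 was read at 11948, 11758 and 11869 in minimal ADPRC, a log2 change of 0.02 (95% confidence interval -0.21 to 0.25). SAH1 had 6566, 6390 and 6468, a change of -0.02 (-0.28 to 0.25). MET13 had 776, 710 and 846, CYS4 had 2068, 2208 and 2201, and STR3 had 130, 171 and 143. Each of these 5 genes overlapped its mock libraries. With the same total per library MET6 passed at 0.46 (adjusted p = 0.0445) and MET13 turned from -0.07 to 0.36 (0.0185), close to the shift of 0.44 in the median of all genes; adjusted p over the alternatives reached 0.991 for both.

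In YEPD 0 of the 9 genes passed in either direction, against 4.92% higher, 0.546% lower and 5.46% in either direction of all genes. At an unadjusted p under 0.05 the count was 1 with limma, and it was also 1 with edgeR and 1 with DESeq2, each with 0 adjusted. That gene was ADO1 in the limma fit, with a log2 change of 0.48 ± 0.17 (limma adjusted p = 0.111). It was read at 1213, 2097 and 1181 in YEPD ADPRC and at 1085 or less in YEPD mock, the only one of the 9 genes whose groups did not overlap, against 15.2% of all genes higher without overlap. The middle value is replicate 2, without which the log2 change was 0.21 (adjusted p = 0.0763). Without replicate 3 it was 0.62 and passed (0.0292), and over the alternatives adjusted p ran from 0.0292 to 0.672.

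Replicate 2 of YEPD ADPRC was the highest of its group for 8 of the 9 genes and the lowest for MET13. SAM2 was read at 329, 559 and 392 in YEPD ADPRC, a log2 change of 0.31 ± 0.15 (limma adjusted p = 0.195) that was 0.10 without replicate 2. SAH1 had 3098, 3803 and 2771 with a change of 0.19 (95% confidence interval -0.08 to 0.45), which was 0.06 without replicate 2. SAM1 had a change of 0.14 (-0.23 to 0.50), which was -0.10 without replicate 2. MET6 had 2577, 3033 and 2813, MET13 had 237, 187 and 260, CYS4 had 1649, 1990 and 1760, CYS3 had 1841, 1950 and 1819, and STR3 had 47.1, 47.3 and 31.7. The log2 changes of these 5 genes lay between -0.07 for CYS3 and 0.21 for STR3.

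Whether the effect of ADPRC differed between media was tested as an interaction, since a call in minimal medium and none in YEPD does not show it. With limma 0 of the 9 genes and 0 of all 5490 genes passed. At an unadjusted p under 0.05 limma had 1 of the 9 and 462 of all genes, edgeR 0 and 330, and DESeq2 0 and 236, with 0 adjusted for each. The 1 gene was CYS3, whose effect was lower in minimal medium by a log2 difference of -0.30 (95% confidence interval -0.59 to -0.003). SAM2 had a difference of 0.15 (-0.31 to 0.61), which was 0.36 without YEPD ADPRC replicate 2 and then passed (adjusted p = 0.0221, range over the alternatives 0.0221 to 1). ADO1 had a difference of -0.004 (-0.53 to 0.52).

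For each gene the tested gene outside the 10 with the most similar log2 profile was sought, by Pearson r over the 12 libraries. The points share the split between media, so r is high for many genes and is given as a description. The nearest gene of SAH1 was SAM3, the high-affinity S-adenosylmethionine permease (r = 0.991). In minimal medium SAM3 was at 799 ± 43.2 without and 789 ± 55.1 with the enzyme, and in YEPD at 269 ± 13.3 and 284 ± 60.0. SAM2 was nearest to the zinc transporter gene ZRT1 (0.996), MET13 to the iron oxidase gene FET3 (0.992), STR3 to RRP17 (0.981), SAM1 to HSP12 (0.970) and CYS4 to EMI2 (0.969). MET6 and MET28 were nearest to HYP2 (0.998 and 0.997), which is listed at 0 in every YEPD library, as is MET28. Those zeros can be missing estimates, so these r values carry no information on RNA levels of HYP2 or MET28 in YEPD.

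ADO1 was nearest to SOD1 (0.994), the cytosolic superoxide dismutase, which is its direct neighbour in RefSeq R64 without overlap; no member overlaps another RefSeq gene (0). SOD1 was at 1972 ± 52.2 in minimal mock and 3313 ± 150 in minimal ADPRC, and at 760 ± 54.1 in YEPD mock and 1713 ± 1338 in YEPD ADPRC. CYS3 differed from the other genes in this respect. Its highest r was 0.886, with the oligosaccharyltransferase gene STT3, and 0 genes exceeded 0.9, where the others had 28 (SAM1) to 169 (MET6 and SAM2) among the 5480 compared. The 165 genes of MET28 rest on its listed zeros in YEPD.

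The neighbouring pathways were described with 52 further genes in 10 lists, all of which were tested. Between media in mock libraries 10 of the 52 were higher in minimal medium and 7 lower, against 7.29% higher and 22.4% lower of all genes, and the median was 0.06, against 1.23 for the 9 genes. The split was 16 and 3 with TMM scaling, 9 and 4 with the same total outside the ribosomal DNA frames, and 48 and 1 with the same total per library. Uptake of methionine and S-adenosylmethionine had 3 of 4 higher, namely SAM3 (1.57 ± 0.13, limma adjusted p = 4.48e-07), the low-affinity methionine permease gene MUP3 (1.22 ± 0.13, 4.34e-06) and the high-affinity permease gene MUP1 (1.16 ± 0.10, 6.49e-07). Sulfate uptake and assimilation had 4 of 12 higher, MET17, MET2, MET3 and SUL2, and 1 lower. The 1 lower was the sulfate permease gene SUL1, at 0, 0 and 1.79 in minimal mock, which is under the level of 3 reads, and at 94.5, 71.2 and 86.5 in YEPD mock. The call of SUL2, the other sulfate permease gene, was lost under 9 of 22 alternatives, among them without any single library of minimal mock or YEPD mock or without minimal ADPRC replicate 3 (adjusted p 0.0549 to 0.12).

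Other transsulfuration and lyase genes had 0 of 5 higher and 2 lower, STR2 and IRC7. Str2, the cystathionine gamma-synthase, makes the substrate of Str3. The call of STR2 was lost without minimal mock replicate 1 or 3 or YEPD mock replicate 1 or 2 (adjusted p 0.0502 to 0.0591), and with the same total per library STR2 and IRC7 turned to 0.75 (adjusted p = 0.000743) and 0.41 (0.0874). The regulators had 0 of 6 higher and 3 lower, with MET32 at -1.54 ± 0.32 (limma adjusted p = 0.00294), MET31 at -1.02 ± 0.35 (0.0415) and GCN4 at -0.47 ± 0.11 (0.00616). MET32 was read at only 7.23, 14.3 and 5.37 in minimal mock, where the level of 3 reads is 4.28 to 5.42. MET31 was also low there, at 16.3, 11.4 and 41.2. The call of MET31 was lost without minimal mock replicate 1 or 2 and without any single library of minimal ADPRC or YEPD mock (adjusted p 0.0576 to 0.171). It was also lost with TMM scaling (adjusted p = 0.112), edgeR (0.348) and DESeq2 (0.32), among 13 of 22 alternatives. The call of GCN4 was lost or turned under 4 of 22. With TMM scaling 1 of the 6 regulators and 1 of the 5 other transsulfuration and lyase genes were lower. With the same total per library MET31 turned to 0.18 (adjusted p = 0.648) and GCN4 to 0.78 (0.000738), and the call of MET32 was lost (-0.38, 0.337). The median of all genes was 1.03 with that scaling, above each of these values and those of STR2 and IRC7. Homoserine supply, the other methyl cycle genes, methylthioadenosine salvage with polyamine synthesis, and glutathione synthesis had 0 calls in either direction among their 17 genes.

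Users of methyl groups held the largest rise of the 52 genes. OPI3, which methylates phosphatidylethanolamine derivatives toward phosphatidylcholine, was at 1110, 1008 and 1022 in minimal mock and at 55.2, 56.2 and 82.7 in YEPD mock. Its log2 change was 4.02 ± 0.17 (limma adjusted p = 5.57e-10). CHO2, the first methyltransferase of the same path, had 1887 ± 81.3 and 1047 ± 39.3, a change of 0.85 ± 0.11 (5.53e-05). OPI3 changed past the threshold under all 22 alternatives in this comparison. Folate-borne carbon supply had 1 of 4 higher (ADE3) and 1 lower (MIS1). The call of ADE3 was lost under 9 of 22 alternatives, 8 of which leave out a library other than minimal ADPRC replicate 2 and those of YEPD ADPRC (adjusted p 0.0514 to 0.142). MIS1 lost its call without minimal mock replicate 3 (0.0519) and turned with the same total per library (0.72, 0.000105). It stayed below the median of all genes there, which was 1.03.

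In the enzyme-treated libraries 13 of the 52 were higher in minimal medium and 11 lower, against 7.05% higher and 25.7% lower of all genes, with a median of 0.01. OPI3 had 4.04 ± 0.17 (limma adjusted p = 4.55e-10), SAM3 1.49 ± 0.13 (7.92e-07) and MET14, the adenylylsulfate kinase gene, 1.37 ± 0.28 (0.00226). SUL1 was at 0.53, 1.92 and 2.47 in minimal ADPRC and at 83.7, 48.0 and 82.6 in YEPD ADPRC. IRC7 and MIS1 were lower at -0.63 ± 0.17 (0.0127) and -0.61 ± 0.14 (0.00456). With the same total per library both turned in sign, to 0.84 (0.00199) and 0.88 (1.31e-05). Both stayed below the median of all genes, which was 1.28 with that scaling and -0.19 on the authors' values. MIS1 also lost its call with the trend in gene length removed (-0.16, limma adjusted p = 0.174). The split of 13 and 11 became 16 and 2 with TMM scaling, 11 and 3 with the same total outside the ribosomal DNA frames, and 51 and 1 with the same total per library.

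**Figure D5:**
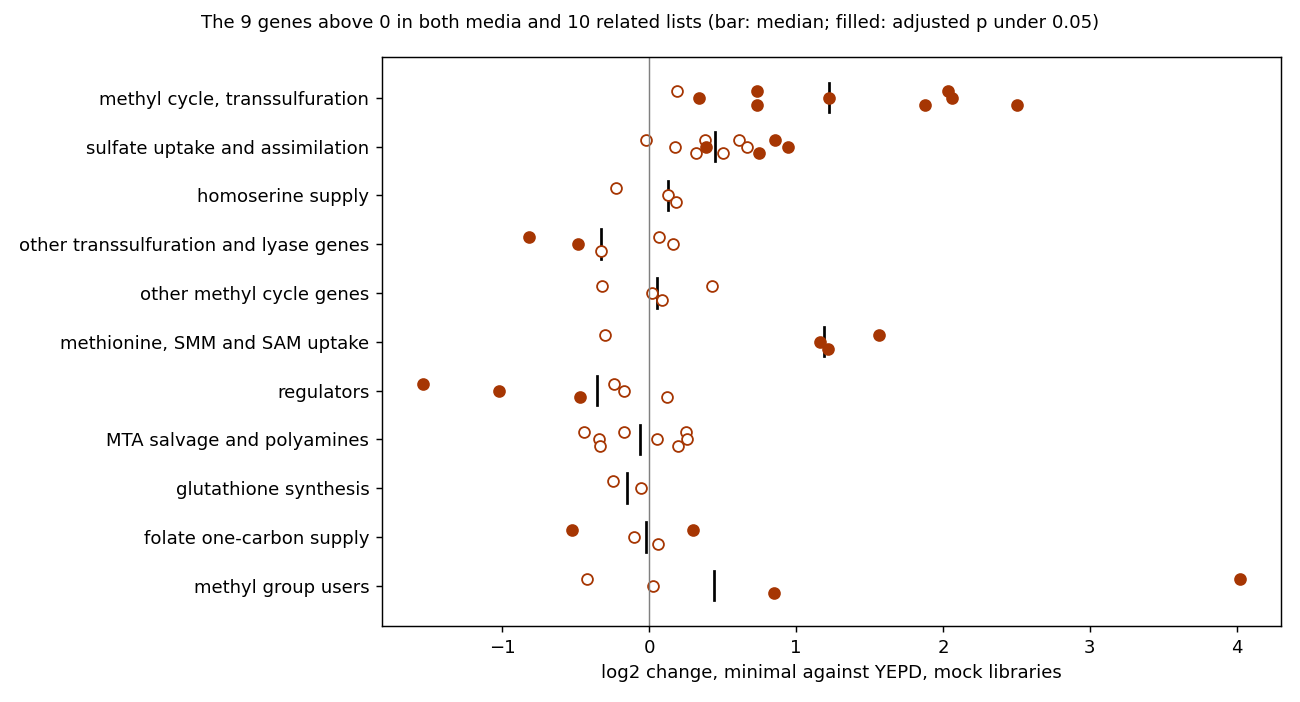
Log2 change between minimal medium and YEPD in mock libraries for the 9 genes above 0 in both media and the 10 related lists, 1 point per gene, bar at the list median, filled where the adjusted p is under 0.05; SUL1, almost at 0 in minimal medium, is counted in its list's median but not drawn. The 9 genes have a median of 1.23, the uptake genes 1.19 and the remaining lists 0.45 or less.

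After ADPRC in minimal medium 11 of the 52 were higher and 5 lower, against 14.2% higher and 14.6% lower of all genes. The methyl users had 3 of 4 higher and 1 lower. OPI3 rose from 1047 ± 55.4 to 2097 ± 68.6 (1.00 ± 0.17, limma adjusted p = 0.00269), past the threshold under all 22 alternatives, ERG6, the sterol methyltransferase gene, by 0.99 ± 0.22 (0.00971), and PPM1 by 0.93 ± 0.18 (0.00481). CHO2 went the other way, from 1887 ± 81.3 to 1440 ± 44.6 (-0.39 ± 0.11, 0.0223), a call lost without minimal mock replicate 2 or 3 or any minimal ADPRC library (0.0537 to 0.0807) and of opposite sign with the same total per library (0.04, 0.752). MET31 had 1.19 ± 0.35 (0.0246) and MET14 1.03 ± 0.28 (0.0177), while SUL2 had -0.55 ± 0.13 (0.0116) and MUP3 -0.51 ± 0.13 (0.0135). Each of these 4 calls was lost when some single library was left out: MET31 without minimal mock replicate 1 or 2 or any minimal ADPRC library (adjusted p 0.062 to 0.102), MET14 without minimal mock replicate 2 or minimal ADPRC replicate 1 or 2 (0.058 to 0.07), SUL2 without minimal ADPRC replicate 2 (0.0542), and MUP3 without minimal mock replicate 2 (0.0545) or minimal ADPRC replicate 2 (0.05). With the same total per library SUL2 and MUP3 were at -0.12 (0.56) and -0.07 (0.701), and of the 52 genes 28 were higher and 0 lower. Removal of the trend in gene length left CHO2 at -0.08 (limma adjusted p = 0.501) and SUL2 at -0.23 (0.303). Under the same setting MET31 had 0.76 (0.104) and MET14 0.63 (0.0536), so these calls were lost too.

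In YEPD 4 of the 52 were higher with the enzyme and 1 lower, against 4.92% higher and 0.546% lower of all genes, and in the interaction 0 passed, as for all genes. OPI3 rose from 64.7 ± 15.6 to 129 ± 34.8 (0.98 ± 0.17, limma adjusted p = 0.00535), UTR4 of methylthioadenosine salvage from 80.6 ± 6.26 to 133 ± 11.6 (0.72 ± 0.14, 0.00785) and the spermidine synthase gene SPE3 from 651 ± 47.0 to 989 ± 124 (0.60 ± 0.13, 0.0159). CHO2 was lower, from 1047 ± 39.3 to 773 ± 114 (-0.45 ± 0.11, 0.0329), but that call was lost under 13 of 22 alternatives, among them without any single library of minimal ADPRC or YEPD mock or without minimal mock replicate 3 (0.051 to 0.116). SPE3 lost its call without YEPD mock replicate 2 (0.0828) or 3 (0.0609). With the trend in gene length removed UTR4 was at 0.44 (limma adjusted p = 0.109), SPE3 at 0.40 (0.0893) and CHO2 at -0.20 (0.165). None of them passed there. In a fit of the YEPD groups alone the adjusted p was 0.118 for OPI3, 0.0605 for UTR4 and 0.11 for SPE3, and edgeR gave 0.0506 for OPI3 and 0.0807 for SPE3.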

How the data were processed

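Total RNA bound to beads after ADPRC or mock treatment was sequenced in 12 libraries. The deposited values are a signal: reads per gene that the authors divided by a single factor for each library, as the file headers and the values show. Every value was a whole multiple of its library's step (100% of values, tolerance 0.01 reads). The submitters' processing notes name FastQC, Trimmomatic, Bowtie, HTSeq and DESeq; versions, genome build, strand setting and treatment of multiply placed reads are not given in these sources. Reads placed in several genes or on the wrong strand could change SAM1, SAM2 and any gene with an overlapping partner.

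Values were fitted as log2(value + 1) with limma 3.58.1 (trend, robust; R 4.3.3) on the 5490 genes with a mean of at least 10, with 4 group means in 1 fit and Benjamini-Hochberg adjustment within each of 5 contrasts. edgeR 4.0.16 and DESeq2 1.42.0 were run on recovered reads of 11 libraries, without YEPD mock replicate 2. That library, with a step of 1.003, was left out although its values were also whole multiples of its step. The fit was tested on data simulated from the minimal mock means with the same relative spread for all genes and libraries. Such data hold no library that stands apart, so they do not test the fit under the spread of YEPD ADPRC. A column of the YEPD ADPRC group carries no replicate number and is called unnumbered. Of 6607 identifiers 5919 matched RefSeq R64, which gave coding lengths. The lowest value that 3 reads allow was 1.60 to 5.42 per library. Intervals cover the spread between libraries, and floors cover counting error only.

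The 10 genes and the related lists were chosen with earlier results of these data known. All 10 are named; of the related lists, the 3 largest changes past the threshold in each direction per contrast are named, and others (MUP1, MET17, MET2, MET3, SUL2, STR2, IRC7, GCN4, ERG6, PPM1, CHO2, ADE3, MIS1, LSM8, DID2) were named after their values were seen, as members of small counts or for comparison. The nearest gene to each of the 10 is that of highest Pearson r. Alternatives were another pseudocount (8), no filter, 3 other scalings, removal of the trend in gene length, fits of a contrast's own groups, edgeR, DESeq2, a replicate block and leaving out each library.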

Additional observations from a re-analysis of the deposited data

How the results depend on the processing

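Over 1012 alternatives to the log2 changes of single genes, 903 kept direction and side of the threshold, 53 changed sign with neither value past it, 22 lost a call, 31 gained one and 3 reversed. The reversals all came with the same total per library: MET13 (0.36) and CYS3 (0.067) after ADPRC in minimal medium, and CYS3 between media in ADPRC libraries (1.38). That scaling put the median of all genes at 0.44 in the first comparison and 1.28 in the second. The number of the 10 genes higher after ADPRC in minimal medium, 1 in the report, was 4 with the same total per library, 2 with TMM scaling, 2 with only the contrast's groups, 2 with the replicate block, and 0 with the same total outside the ribosomal DNA frames, with the length trend removed and with edgeR; it ran from 0 to 2 over libraries left out. The number lower, 1 in the report, was 0 with the same total per library and 0 to 1 over libraries left out. After ADPRC in YEPD the number higher was 0 to 1 over libraries left out (1 without YEPD ADPRC replicate 3). In the interaction it was also 0 to 1 (1 without YEPD ADPRC replicate 2). Between media the counts of higher genes stayed within 1.5 times: 7 to 9 in mock libraries over all alternatives, and 4 to 9 in ADPRC libraries. The cause of these changes was not tested.

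Same-numbered libraries did not deviate together, except in the ADPRC libraries of the 2 media, where pairing is not settled. Libraries of different numbers were not compared. Deviations of same-numbered libraries from their group means correlated at -0.09 to -0.02 between minimal mock and minimal ADPRC, at -0.05 to -0.01 between mock libraries of the 2 media, and at -0.15 and -0.04 in YEPD; in ADPRC libraries the 2 pairs had 0.32 and 0.22. The replicate block, which uses YEPD ADPRC replicates 2 and 3 only, called 2 genes up and 1 down for ADPRC in minimal medium, 0 in YEPD, and 4 in ADPRC libraries between media, where SAH1 (adjusted p = 0.131) and ADO1 (0.315) lost their calls; CYS3 passed with it between media in mock libraries (0.0128). ADO1 also lost it with only the contrast's groups (0.0674). Depth limits STR3 and MET28, with 29 to 38 reads in YEPD mock and 13 to 23 reads in minimal mock, most; MET28 allows no statement on YEPD.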
